A study of Caenorhabditis elegans with 18 samples.

Results

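The genes described here are 9 repressors of the synthetic multivulva (synMuv) network and of heterochromatin in Caenorhabditis elegans: lin-13, lin-36, lin-61, hpl-1, hpl-2, met-2, lin-56, lin-38 and lin-8. They were chosen by name, and each was read from the probe sets whose platform annotation names that gene alone. All 9 were found among the 17118 genes with such a probe set, and together they have 19 probe sets. Where a gene has several, the one of highest mean over the 18 arrays stands for it. In the RefSeq annotation of assembly WBcel235, lin-13, lin-36, met-2 and hpl-2 lie on chromosome III, lin-56, lin-38 and lin-8 on chromosome II, lin-61 on chromosome I and hpl-1 on chromosome X. Transcript levels were measured on 18 Affymetrix arrays of whole worms, in 6 groups of 3 arrays. The groups are lin-35(n745) embryos and N2 embryos, lin-35(n745) L1 larvae and N2 L1 larvae, and lin-35(n745) L4 larvae and N2 L4 larvae. L1 and L4 are the first and the last larval stage, and the larvae were hermaphrodites from synchronized populations; the labels give no age for the embryos. N2 is the laboratory wild type, and lin-35(n745) carries a premature stop allele of lin-35, the only retinoblastoma family gene of the worm. Both strains were fed the same bacteria, and the animals of each array were grown and isolated independently. The comparisons ask how the transcripts of these genes differ when lin-35 is mutated, at each stage and between stages.

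The synMuv genes were found through the vulva, which is induced by LIN-3, an epidermal growth factor made by the anchor cell. They fall into classes A and B that act redundantly, so that a worm with a defect in both classes makes extra vulval tissue because lin-3 is no longer held silent outside its normal cell. LIN-35 is a class B protein and works with E2F and DP factors in the DREAM complex, which represses cell cycle and germline genes. Class B also holds proteins that write or read methylation of histone H3 at lysine 9, the mark of heterochromatin. LIN-13 is a zinc finger protein that binds the heterochromatin protein HPL-2. LIN-61, with its malignant brain tumour repeats, reads the same mark, and MET-2 places it. HPL-1 and HPL-2 are the worm's HP1 proteins. LIN-36 is a THAP domain protein that represses genes together with DREAM. LIN-56, LIN-38 and LIN-8 are class A proteins of the nucleus; LIN-56 works with LIN-15A, and LIN-8 has been reported to bind LIN-35.

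Arrays of 1 group correlated at 0.986 to 0.997 across probe sets, arrays of different groups at up to 0.992, and 0 pairs of arrays were identical. The values were read as log2 levels, and in a bulk sample of whole animals fewer cells of a type and less RNA per cell cannot be told apart. No detection call was used, so whether low values stood above background was not tested. Under 6.30, the median of all probe sets and arrays, lay every value of lin-38, every larval value of lin-56 and, for lin-36, the N2 L4 arrays with 1 lin-35(n745) L4 array. The transcript of the mutated gene itself was lower in lin-35(n745), with no overlap of arrays at any stage, by -1.38 ± 0.15 in embryos, -1.27 ± 0.15 at L1 and -1.25 ± 0.15 at L4 (log2 difference ± SE). The first replicate of both embryo groups read a hybridization control of the array (BioDn-3) at 10.6 in lin-35(n745) and 10.2 in N2, against 12.2 to 12.3 on the other embryo arrays. The control BioDn-5 was low there too, at 8.99 and 8.71 against 10.4 to 10.7. The BioB and BioC controls were higher there, BioC-3 for example at 6.92 and 6.72 against 5.11 to 5.44. Strain differences in embryos, and their tests against those at L1 and L4, were also computed without both of these arrays. Calls that change without them are given both ways. Stage differences within a strain were recomputed only without 1 array at a time, the first embryo replicate of that strain among them. Sperm genes marked the L4 larvae, with a mean log2 level of 8.89 to 9.01 in lin-35(n745) and 8.89 to 8.95 in N2 over 11 genes, against at most 5.49 on any embryo or L1 array. At L1 the mean was 4.68 to 4.71 in lin-35(n745) and 4.86 to 5.49 in N2, with no overlap. There 3 of the 11 were lower in lin-35(n745) (limma adjusted p under 0.05) and 0 higher, where 6.94% of all probe sets were lower. Embryonic patterning genes (12 measured) marked the embryos, at 6.74 to 6.79 in lin-35(n745) and 6.95 to 7.05 in N2 with no overlap, against at most 5.29 on any larval array. The mean of 10 somatic tissue markers was 9.46 to 9.91 on all arrays. At L4 it was 9.58 to 9.68 in lin-35(n745) and 9.47 to 9.51 in N2, with no overlap. There 3 of the 10 were higher in lin-35(n745) and 1 lower, where 7.77% and 7.48% of all probe sets were.

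Development set the largest differences among these genes: on the probe sets that stand for them, all 9 were higher in embryos than in larvae of the wild type. In N2, all 9 fell at L1 relative to embryos, where 33.6% of all 22548 probe sets fell, and all 9 were lower at L4 than in embryos, where 35.8% of all probe sets were. Of all 19 probe sets of these genes, 17 were lower at L1 and 17 at L4. The other met-2 probe set was lower at neither stage (0.12 ± 0.11, adjusted p = 0.341, and 0.01 ± 0.11, adjusted p = 0.929). The other lin-38 one did not pass at L1 (-0.39 ± 0.18, adjusted p = 0.0522), nor did 1 other hpl-2 one at L4 (-0.11 ± 0.12, adjusted p = 0.393). The median log2 difference of the 9 genes was -1.17 at L1 against embryo and -1.40 at L4 against embryo, beside 0.129 and 0.0804 over all probe sets. The class A genes lin-56 and lin-8 fell most in N2 at L1, by -2.37 ± 0.15 (adjusted p = 9.55e-12) and -1.77 ± 0.13 log2 units, with lin-56 at L1 among the low values. The smallest decrease was that of lin-38, -0.58 ± 0.14 (adjusted p = 0.00122). Here and below, differences are log2 ± SE from a model fitted to all arrays and probe sets with limma, and a gene is said to change where its p, adjusted by the Benjamini-Hochberg method over all probe sets, is under 0.05.

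Between the larval stages fewer of the 9 passed the test. In N2, lin-13 (-0.43 ± 0.12, adjusted p = 0.00774) and lin-36 (-0.73 ± 0.15, adjusted p = 0.000498) were lower at L4 than at L1, where 24% of all probe sets were lower. The class A gene lin-56 was higher at L4 than at L1 (0.59 ± 0.15, adjusted p = 0.00218), where 21.2% of all probe sets were higher, and both groups were among the low values. The other 6 genes did not pass the test on the probe sets that stand for them. Some other hpl-2 probe sets were higher at L4 (0.35 ± 0.13, adjusted p = 0.0338, and 0.33 ± 0.12, adjusted p = 0.031). With the N2 L1 and L4 arrays alone, lin-8 was lower at L4 (-0.23, adjusted p = 0.0418).

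In lin-35(n745) worms too, most of the 9 were higher in embryos than in larvae. At L1 against embryo, 7 of the 9 genes were lower in lin-35(n745), where 32.9% of all probe sets were. The exceptions were lin-13, with -0.25 ± 0.12 (adjusted p = 0.0763; -0.34 and 0.0294 without the third lin-35(n745) L1 replicate), and lin-38, with -0.16 ± 0.14 (adjusted p = 0.332). With the mean of its 2 probe sets lin-38 passed (-0.33, adjusted p = 0.0257). The other met-2 probe set was not called at L1 against embryo in lin-35(n745) (-0.12 ± 0.11, adjusted p = 0.334). At L4 against embryo, 8 of the 9 were lower, where 35.9% of all probe sets were, and lin-38 did not pass (-0.24 ± 0.14, adjusted p = 0.132). It passed there with the mean of its probe sets (-0.43, adjusted p = 0.00539) and after quantile normalization (-0.38, adjusted p = 0.0315). At L4 against L1, 5 were lower in lin-35(n745), where 23.7% of all probe sets were: lin-13 (-0.84 ± 0.12), hpl-1 (-0.69 ± 0.17), lin-8 (-0.65 ± 0.13), lin-36 (-0.51 ± 0.15) and met-2 (-0.32 ± 0.11). The calls of lin-36 (-0.34, adjusted p = 0.0888) and met-2 (-0.20, adjusted p = 0.179) were lost without the first lin-35(n745) L4 replicate. That of met-2 was also lost without the second (-0.28, adjusted p = 0.0776) or the third (-0.29, adjusted p = 0.0746) lin-35(n745) L1 replicate. With the mean of a gene's probe sets, lin-36 (-0.23, adjusted p = 0.149) and met-2 (-0.24, adjusted p = 0.0652) were not called.

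**Figure D1:**
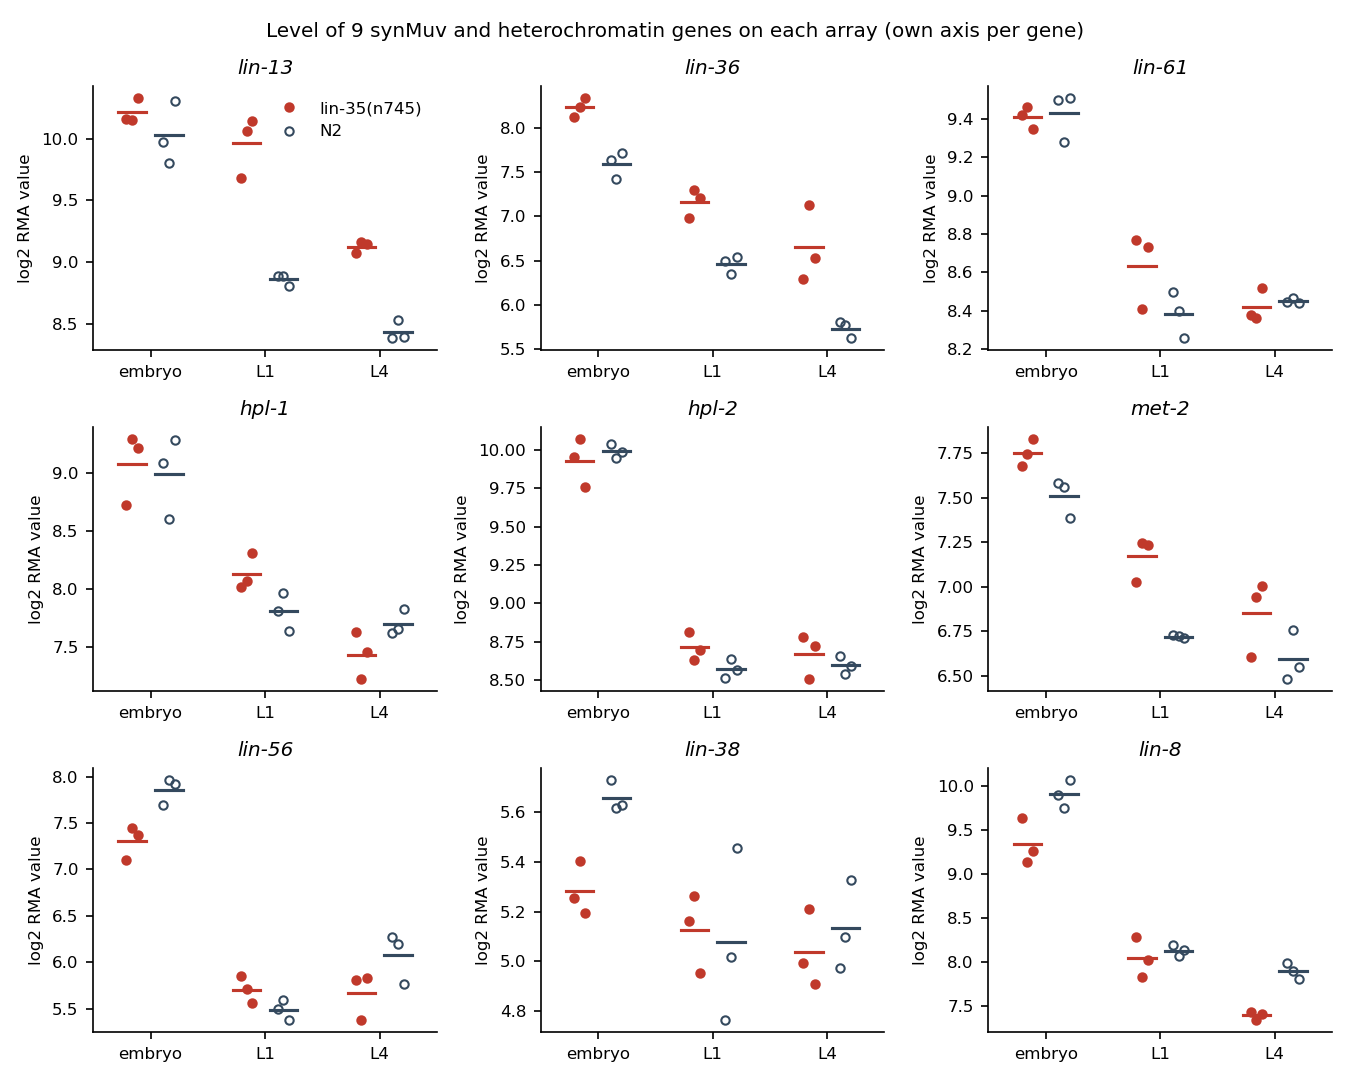
Log2 level of each of the 9 genes (vertical axis, own scale per gene) on each array, by stage (horizontal axis), with lin-35(n745) as filled red points left of N2 as open points; bars are means of 3 arrays. The embryo points lie above the larval points for 7 of the genes. The exceptions are lin-38 and lin-13, whose lin-35(n745) L1 points (9.68 to 10.14) overlap the N2 embryos.

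Set against N2 at the same stage, the called genes of the 9 did not share 1 direction. In lin-35(n745) embryos, 1 gene was higher (lin-36) and 2 were lower (lin-56 and lin-8), where 5.92% of all probe sets were higher and 3.78% lower. At L1, 3 were higher in lin-35(n745) (lin-13, lin-36 and met-2) and 0 lower, where 8.24% of all probe sets were higher and 6.94% lower. At L4, 2 were higher (lin-13 and lin-36) and 1 lower (lin-8), where 7.77% and 7.48% of all probe sets were higher and lower. The median difference of the 9 genes was -0.02 in embryos, 0.25 at L1 and -0.03 at L4, beside -0.03, -0.04 and -0.03 over all probe sets. The 6 class B and heterochromatin genes gave 6 calls over the 3 stages, all of them higher in lin-35(n745), and the 3 class A genes gave 3, all of them lower. Other readings did not keep to this split: a second hpl-1 probe set was lower at L4 (-0.38 ± 0.12, adjusted p = 0.0439), and lin-15A, a class A gene outside the 9, was higher at L1 (0.45 ± 0.12, adjusted p = 0.0103) and L4 (0.46 ± 0.12, adjusted p = 0.00872). The lin-15A calls were lost without the third lin-35(n745) (adjusted p = 0.0758) or the third N2 (adjusted p = 0.0535) replicate at L1 or with the L1 arrays alone (adjusted p = 0.116), and without the second lin-35(n745) replicate at L4 (adjusted p = 0.0518). A gene was called at all 3 stages in 1 case (lin-36), at 2 stages in 2 cases (lin-13 and lin-8), at 1 stage in 2 cases (met-2 and lin-56) and at none in 4 cases (lin-61, hpl-1, hpl-2 and lin-38).

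Germline marker genes were measured beside them. Over 16 such genes, the mean log2 level per array was 9.13 to 9.19 in lin-35(n745) embryos against 8.82 to 8.95 in N2 embryos, 7.79 to 8.05 in lin-35(n745) L1 larvae against 6.89 to 7.17 in N2 L1 larvae, and 9.17 to 9.22 in lin-35(n745) L4 larvae against 8.90 to 8.95 in N2 L4 larvae. Of the 16, 3 were higher and 0 lower in embryos, where 5.92% and 3.78% of all probe sets were. For the L1 larvae 6 were higher and 2 lower, beside 8.24% and 6.94% of all probe sets. The L4 larvae gave 5 higher and 2 lower, beside 7.77% and 7.48%. The higher L1 mean rested on few genes: pgl-3 (4.81 ± 0.10), him-3 (4.48 ± 0.12), pgl-1 (3.25 ± 0.11) and glh-1 (2.85 ± 0.13) differed most, gld-1 and oma-1 were lower, and the median difference of the 16 was 0.126. These germline genes were chosen for their size after their values were seen. The 12 embryonic patterning markers had a median difference of -0.174 in embryos, beside -0.03 over all probe sets. Of these 12, 2 were called lower (hlh-14 and sdz-10), where 3.78% of all probe sets were, at the stage where lin-56 and lin-8 were lower too. The part of these marker lists, or of the sperm and somatic ones, in the results on the 9 genes was not tested.

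**Figure D2:**
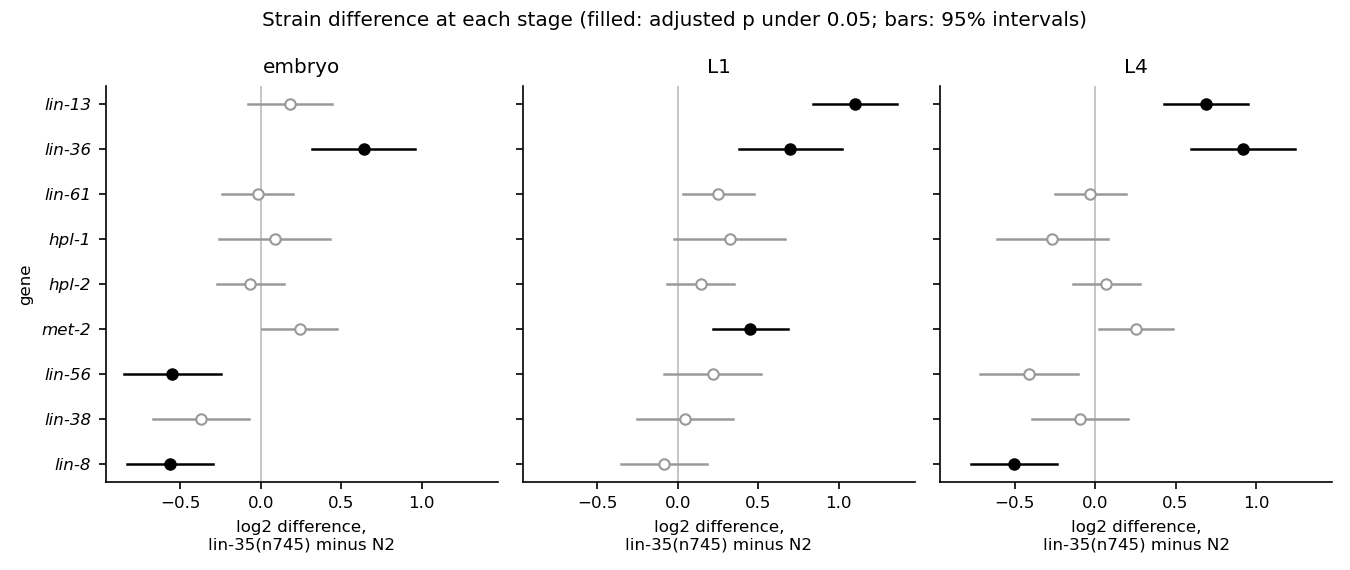
Log2 difference of lin-35(n745) minus N2 (horizontal axis) for each of the 9 genes (rows) in embryos, L1 and L4 larvae, with 95% intervals; filled points have a limma adjusted p under 0.05. The called points of lin-13, lin-36 and met-2 lie right of 0, and those of lin-56 and lin-8 lie left of it.

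The THAP domain gene lin-36 was higher in lin-35(n745) at every stage, by 1.56-fold in embryos, 1.62-fold at L1 and 1.89-fold at L4, where the N2 values were low. Its log2 level was 8.12, 8.23 and 8.34 on the lin-35(n745) embryo arrays, against 7.64, 7.42 and 7.71 on the N2 embryo arrays. At L1 it was 6.98, 7.30 and 7.21 in lin-35(n745), against 6.50, 6.35 and 6.54 in N2. At L4 it was 6.29, 7.13 and 6.53 in lin-35(n745), against 5.80, 5.77 and 5.62 in N2. At no stage did the arrays of the strains overlap, and the lin-35(n745) L4 arrays spread the most, with the second replicate high (SD 0.43). The differences were 0.64 ± 0.15 (adjusted p = 0.00975), 0.70 ± 0.15 (adjusted p = 0.00317) and 0.92 ± 0.15 (adjusted p = 0.000221) in the 3 stages. Without the second N2 embryo replicate, the embryo difference was 0.55 with an adjusted p of 0.0532. Of its 2 other probe sets, both were called at L4 and 0 at L1. In the order of the 6 groups, lin-35(n745) L4 larvae (mean 6.65) stood above N2 L1 larvae (6.46), with overlapping arrays.

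The zinc finger gene lin-13 was higher in lin-35(n745) larvae, by 2.14-fold at L1 and 1.62-fold at L4, and did not pass the test in embryos. Its log2 level was 10.16, 10.16 and 10.33 in lin-35(n745) embryos, against 9.98, 9.81 and 10.31 in N2 embryos. At L1 it was 9.68, 10.06 and 10.14 in lin-35(n745), against 8.89, 8.89 and 8.81 in N2. At L4 it was 9.07, 9.16 and 9.14 in lin-35(n745), against 8.38, 8.53 and 8.39 in N2. The strains overlapped in embryos and were separate at both larval stages. The difference was 0.19 ± 0.12 in embryos (adjusted p = 0.436), with a 95% interval from -0.08 to 0.45. It was 1.10 ± 0.12 at L1 (adjusted p = 1.79e-06) and 0.69 ± 0.12 at L4 (adjusted p = 0.000488). In the order of the groups the lin-35(n745) L1 larvae came after both embryo groups, with arrays that overlapped those of N2 embryos and lay well above those of every other larval group.

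The histone methyltransferase gene met-2 was called at L1 alone, where it was 1.37-fold higher in lin-35(n745). Its log2 level at L1 was 7.03, 7.25 and 7.24 in lin-35(n745), against 6.73, 6.72 and 6.71 in N2, a difference of 0.45 ± 0.11 (adjusted p = 0.00774). In embryos it was 7.68, 7.75 and 7.83 in lin-35(n745), against 7.58, 7.56 and 7.38 in N2, which did not overlap but did not pass the test (0.24 ± 0.11, adjusted p = 0.204). At L4 it was 6.61, 6.94 and 7.003 in lin-35(n745), against 6.48, 6.76 and 6.55 in N2, with overlap (0.25 ± 0.11, adjusted p = 0.148). A second met-2 probe set was not called at L1. Without the first lin-35(n745) L4 replicate the L4 difference was 0.37 with an adjusted p of 0.0298.

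The genes lin-61, hpl-1 and hpl-2, whose proteins read histone methylation, gave no call between strains at any stage. For hpl-2, which encodes the HP1 protein with synMuv activity, the log2 level was 9.93 ± 0.16 in lin-35(n745) embryos and 9.99 ± 0.05 in N2 embryos, 8.71 ± 0.09 in lin-35(n745) L1 larvae and 8.57 ± 0.06 in N2 L1 larvae, and 8.67 ± 0.14 in lin-35(n745) L4 larvae and 8.60 ± 0.06 in N2 L4 larvae (SD, n = 3 each). Its differences had 95% intervals from -0.27 to 0.14 in embryos, -0.06 to 0.35 at L1 and -0.14 to 0.28 at L4. A change of the size read on the probe set that stands for lin-36 lies outside each of them. At L1, though, the other lin-36 probe sets read 0.34 and 0.02, inside that interval. The hpl-2 paralog hpl-1 averaged 9.07 ± 0.31 in lin-35(n745) embryos and 8.99 ± 0.35 in N2 embryos, 8.13 ± 0.16 in lin-35(n745) L1 larvae and 7.81 ± 0.16 in N2 L1 larvae, and 7.44 ± 0.20 in lin-35(n745) L4 larvae and 7.70 ± 0.11 in N2 L4 larvae. In embryos the hpl-1 difference was 0.09 ± 0.17 (adjusted p = 0.84), and 0.31 (adjusted p = 0.42) with embryo replicates 2 and 3 alone. The hpl-1 arrays did not overlap at L1, yet the difference there did not pass (0.32 ± 0.17, adjusted p = 0.215), and its intervals are the widest of the 9, from -0.02 to 0.67 at L1. The gene lin-61 averaged 9.41 ± 0.06 in lin-35(n745) embryos and 9.43 ± 0.13 in N2 embryos, and 8.42 ± 0.09 in lin-35(n745) L4 larvae and 8.45 ± 0.02 in N2 L4 larvae. For lin-61 the difference was -0.02 ± 0.11 in embryos, 0.25 ± 0.11 at L1 (adjusted p = 0.122) and -0.03 ± 0.11 at L4. At L1 lin-61 read 8.77, 8.41 and 8.73 in lin-35(n745), against 8.50, 8.40 and 8.26 in N2, and without the low second lin-35(n745) replicate the difference was 0.36 (adjusted p = 0.0194).

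The class A gene lin-8 was lower in lin-35(n745) embryos and L4 larvae. Its log2 level was 9.63, 9.13 and 9.26 in lin-35(n745) embryos, against 9.90, 9.75 and 10.06 in N2 embryos. At L4 it was 7.43, 7.34 and 7.42 in lin-35(n745), against 7.99, 7.90 and 7.81 in N2. The strains did not overlap at either stage, and the differences were -0.56 ± 0.13 (adjusted p = 0.00644) in embryos and -0.50 ± 0.13 (adjusted p = 0.00875) at L4, a level in lin-35(n745) of 0.677 and 0.705 times that of N2. At L1 the arrays overlapped, with 8.28, 7.83 and 8.02 in lin-35(n745) against 8.19, 8.06 and 8.13 in N2, and the difference was -0.09 ± 0.13 (95% interval -0.35 to 0.18). Without the second lin-35(n745) embryo replicate the embryo call was lost (-0.46, adjusted p = 0.0504). The first embryo replicates of the strains differed by -0.264, and the means of the other replicates by -0.711.

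The class A gene lin-56 was lower in lin-35(n745) embryos, at 0.684 times the N2 level. The log2 level was 7.10, 7.45 and 7.38 in lin-35(n745) embryos, against 7.69, 7.96 and 7.92 in N2 embryos, with no overlap (-0.55 ± 0.15, adjusted p = 0.0188). This call was lost without the first lin-35(n745) replicate (-0.44, adjusted p = 0.11), the second N2 replicate (-0.50, adjusted p = 0.0748) or the third N2 replicate (-0.52, adjusted p = 0.0729), and with embryo replicates 2 and 3 alone (-0.53, adjusted p = 0.0857). At L1 lin-56 read 5.85, 5.71 and 5.56 in lin-35(n745), against 5.49, 5.60 and 5.38 in N2 (0.22 ± 0.15, adjusted p = 0.367). At L4 it read 5.81, 5.37 and 5.82 in lin-35(n745), against 6.27, 6.20 and 5.77 in N2. The L4 arrays overlapped through the third N2 replicate, which was low, and the difference of -0.41 ± 0.15 had an adjusted p of 0.0655, which was 0.0152 without that array (-0.56).

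For lin-38, the remaining class A gene, no strain difference passed the test. It read 5.25, 5.40 and 5.19 in lin-35(n745) embryos, against 5.73, 5.61 and 5.63 in N2 embryos, with no overlap and a difference of -0.37 ± 0.14 (adjusted p = 0.116). At L1 it averaged 5.13 ± 0.16 in lin-35(n745) and 5.08 ± 0.35 in N2, and at L4 5.04 ± 0.16 in lin-35(n745) and 5.13 ± 0.18 in N2 (SD, n = 3 each). The differences at L1 and L4 were 0.05 ± 0.14 and -0.09 ± 0.14, with overlapping arrays. All of these are low values.

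Whether a strain difference depends on the stage was tested as the difference between 2 stages' strain differences. At L1 against embryo, 2 of the 9 genes passed, where 9.2% of all probe sets did in either direction. The difference for lin-13 was larger at L1 than in embryos by 0.92 ± 0.18 log2 units (adjusted p = 0.00194), with a 95% interval from 0.55 to 1.28. For lin-56 it was more positive at L1 by 0.76 ± 0.21 (adjusted p = 0.0219), being 0.22 at L1 and -0.55 in embryos. The lin-56 test was lost without any of 4 single arrays: the first lin-35(n745) embryo replicate (0.66, adjusted p = 0.0685), the second (0.71, adjusted p = 0.0539) or the third (0.73, adjusted p = 0.0533) N2 embryo replicate, or the third N2 L1 replicate (0.71, adjusted p = 0.0622). With embryo replicates 2 and 3 alone it was also lost (0.74, adjusted p = 0.0538). The other class A genes differed in the same direction without passing, lin-8 by 0.48 ± 0.18 (adjusted p = 0.112) and lin-38 by 0.42 ± 0.20 (adjusted p = 0.228). For lin-8 the test passed without the first lin-35(n745) embryo replicate (0.62, adjusted p = 0.0283), without the second lin-35(n745) L1 replicate (0.58, adjusted p = 0.0361) and with embryo replicates 2 and 3 alone (0.63, adjusted p = 0.0478). For lin-38 it passed without the third N2 L1 replicate (0.61, adjusted p = 0.046).

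At L4 against L1, limma called 0 of the 9 genes, where 6.72% of all probe sets passed, while 4 had an unadjusted p under 0.05. These 4 were lin-56 (-0.62 ± 0.21, adjusted p = 0.0774), hpl-1 (-0.59 ± 0.23, adjusted p = 0.159), lin-8 (-0.42 ± 0.18, adjusted p = 0.206) and lin-13 (-0.41 ± 0.18, adjusted p = 0.209). Without the third N2 L4 replicate lin-56 passed (-0.78, adjusted p = 0.0258). At L4 against embryo, limma again called 0 of 9, where 7.74% of all probe sets passed, and 1 had an unadjusted p under 0.05. That gene was lin-13, whose strain difference was larger at L4 by 0.51 ± 0.18 (adjusted p = 0.0894), and by 0.62 without the second N2 embryo replicate (adjusted p = 0.0368). For lin-36, called at all 3 stages, the strain difference at L1 and in embryos differed by 0.06 ± 0.22 (adjusted p = 0.917).

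**Figure D3:**
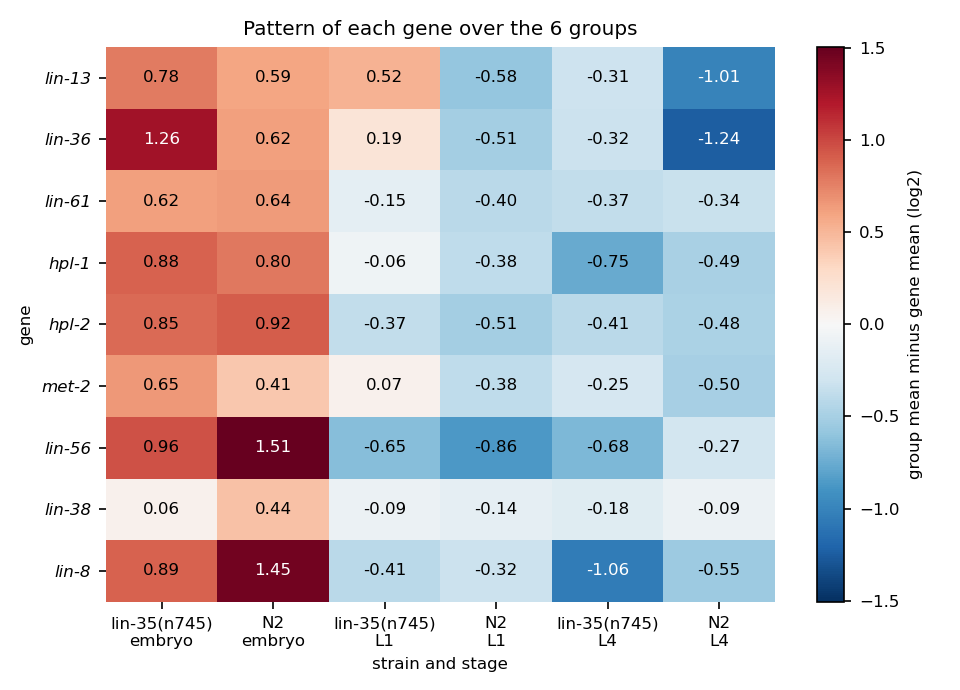
Mean log2 level of each gene (rows) in each strain and stage (columns), minus the mean of that gene over all arrays; red is above and blue below that mean. For lin-13 the lin-35(n745) L1 group is at 0.52 and N2 L1 at -0.58, and for lin-8 the lowest group is lin-35(n745) L4 at -1.06.

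The 6 genes with more than 1 probe set give a second reading of the same RNA. For lin-13 the other probe set passed at the same larval stages, with 0.85 ± 0.10 at L1 (adjusted p = 2.73e-06) and 0.52 ± 0.10 at L4 (adjusted p = 0.00096), and not in embryos (0.21 ± 0.10, adjusted p = 0.226). For lin-36 both other probe sets were higher at L4 (0.75 ± 0.16 and 0.70 ± 0.14), but at L1 they read 0.34 ± 0.16 (adjusted p = 0.16) and 0.02 ± 0.14 (adjusted p = 0.947). With the mean of its 3 probe sets, lin-36 was not called at L1 (0.35, adjusted p = 0.0591). In embryos 1 of the other lin-36 probe sets was called (0.47 ± 0.14, adjusted p = 0.0316). The other met-2 probe set was called in embryos (0.39 ± 0.11, adjusted p = 0.0281) and not at L1 (0.15 ± 0.11, adjusted p = 0.406), so the 2 met-2 readings place the call at different stages. The other hpl-1 probe set was lower in lin-35(n745) at L4 (-0.38 ± 0.12, adjusted p = 0.0439). None of the 4 other hpl-2 probe sets was called between strains, nor was the other lin-38 probe set. Probe sets of a gene also disagreed over development: in lin-35(n745), 3 of the 4 other hpl-2 probe sets were higher at L4 than at L1 (0.57 ± 0.13, 0.40 ± 0.13 and 0.38 ± 0.12), whereas the one that stands for the gene read -0.05 ± 0.10. All 5 hpl-2 probe sets, the one that stands for lin-36 and the other met-2 one carry the suffix (x) that the array's maker gives to probe sets whose probes can match other transcripts; its part in these differences was not tested.

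**Figure D4:**
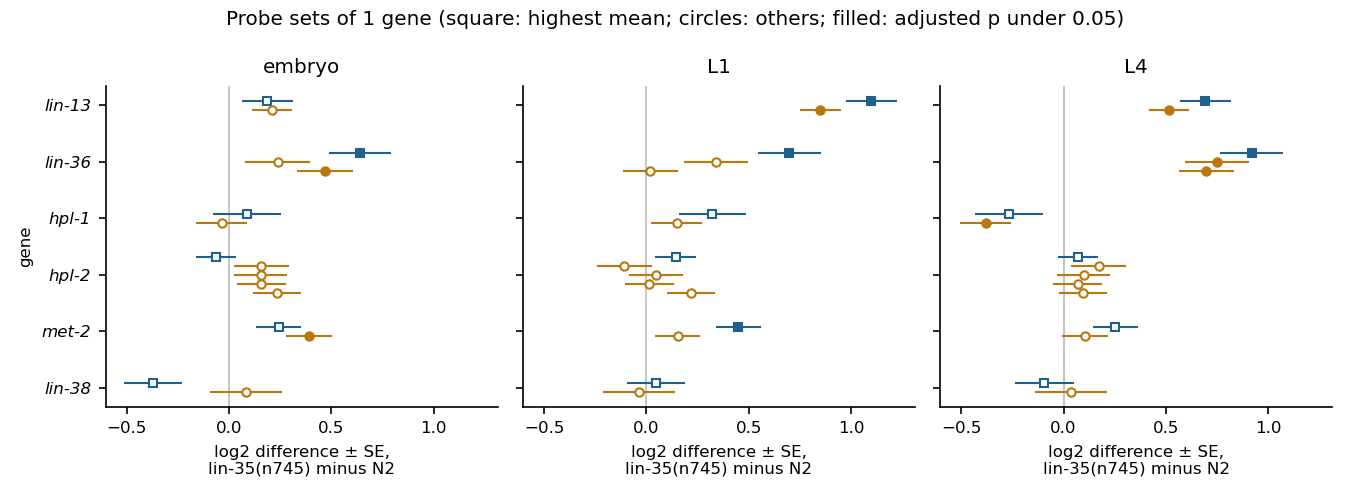
Log2 difference ± SE of lin-35(n745) minus N2 (horizontal axis) for every probe set of the 6 genes (rows) that have several, at each stage; squares are the probe sets with the highest mean, circles the others, and filled symbols have an adjusted p under 0.05. All 3 lin-36 probe sets are called at L4 and only the square at L1, and for met-2 the called symbol is the circle in embryos and the square at L1.

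Other genes of the same network, from lists of 50 genes of which 47 were measured, were set beside the 9. In lin-35(n745) embryos 4 of the 47 were higher and 3 lower, where 5.92% and 3.78% of all probe sets were. At L1 20 were higher and 1 lower, where 8.24% and 6.94% of all probe sets were, and at L4 10 were higher and 3 lower, where 7.77% and 7.48% were. At each stage 1 of the lower genes was lin-35 itself. The median difference of the 47 genes was -0.00455 in embryos, 0.288 at L1 and 0.0533 at L4, beside -0.03, -0.04 and -0.03 over all probe sets. Of the 9 DREAM and Rb genes, 2, 5 and 4 were higher in embryos, L1 and L4 larvae. Among them was efl-1, the E2F partner of LIN-35 (0.66 ± 0.12 in embryos, 1.02 ± 0.12 at L1 and 1.11 ± 0.12 at L4). The DP gene dpl-1 was higher at L1 (1.22 ± 0.14) and L4 (0.96 ± 0.14) and not called in embryos (0.34 ± 0.14, adjusted p = 0.146). Of 8 genes for H3K9 methylation and the nuclear periphery, 2 were higher at L1 and 1 at L4, where 2 were lower. The call of set-6 at L1 (0.39 ± 0.13, adjusted p = 0.048) and that of cec-4 at L4 (0.30 ± 0.10, adjusted p = 0.0442) were fragile. Both were lost after median centring, after quantile normalization and with the replicate block. That of cec-4 was also lost without any single L4 array, and that of set-6 without any single L1 array but the second lin-35(n745) one. The chromodomain anchor gene cec-4 was higher at L1 (0.81 ± 0.10, adjusted p = 5.14e-06), and the putative methyltransferase gene set-32 was lower at L4 (-0.44 ± 0.11, adjusted p = 0.00782). The histone H3K36 methyltransferase gene mes-4, whose loss suppresses some synMuv phenotypes, was higher at L1 (1.16 ± 0.11, adjusted p = 1.97e-07) and at L4 (0.88 ± 0.11, adjusted p = 8.85e-06), and also in embryos (0.41 ± 0.11, adjusted p = 0.0223). Its embryo call was lost without the second lin-35(n745) replicate (0.29, adjusted p = 0.152) or the second (0.42, adjusted p = 0.0527) or the third (0.34, adjusted p = 0.114) N2 replicate, and with the embryo arrays alone (adjusted p = 0.0669). The vulval signal gene lin-3 was higher in lin-35(n745) embryos (0.41 ± 0.11, adjusted p = 0.0214) and not called at L1 (0.08 ± 0.11) or L4 (0.05 ± 0.11). That lin-3 call was lost with embryo replicates 2 and 3 alone (0.33, adjusted p = 0.192). It was also lost without the first (adjusted p = 0.0736) or the third (adjusted p = 0.0757) lin-35(n745) replicate, or the first (adjusted p = 0.0913) or the third (adjusted p = 0.106) N2 replicate, after quantile normalization (adjusted p = 0.0579), with the replicate block (adjusted p = 0.0534) and with the embryo arrays alone (adjusted p = 0.0517).

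**Figure D5:**
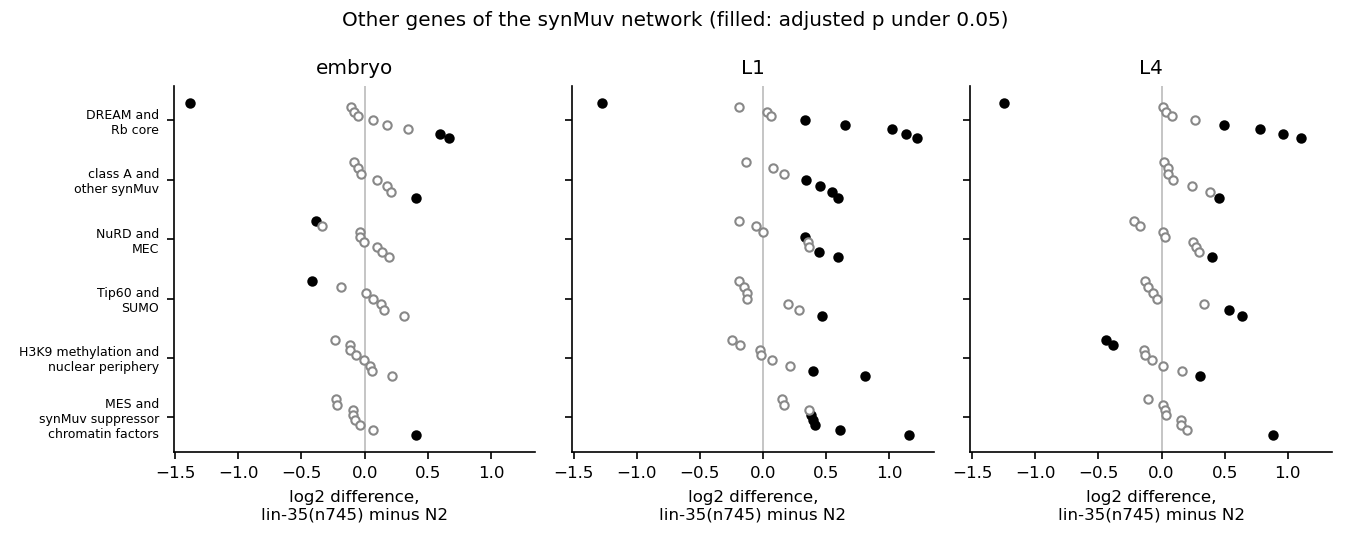
Log2 difference of lin-35(n745) minus N2 (horizontal axis) for the 47 measured genes of 6 related lists (rows) at each stage, 1 point per gene; filled points have an adjusted p under 0.05. The point furthest left in each panel is lin-35, and filled points right of 0 number 4 in embryos, 20 at L1 and 10 at L4.

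The genes whose pattern over the 6 groups was most like that of each of the 9 were found by the root mean square difference of group means, after centring each gene on its own mean. For lin-13 the nearest of 17117 genes were B0238.13 (0.0463 log2 units), C24H12.2 (0.122) and the phospholipase gene ipla-2 (0.134). For lin-36 they were ctf-8 (0.126), which encodes a sister chromatid cohesion factor, the E2F gene efl-1 (0.158) and ZK154.5 (0.166). Within the 9, lin-13 and lin-36 were each other's nearest gene, at 0.26, and lin-56 and lin-8 were each other's, at 0.31. Among all 17117 genes, though, lin-36 ranked only 45 in nearness to lin-13, and lin-13 ranked 29 to lin-36. In the same ranking lin-8 was at 383 for lin-56, and lin-56 at 547 for lin-8. For hpl-2 the nearest were F13E6.1 (0.0178), tads-1 (0.0338) and otub-4 (0.0427), and for lin-61 they were pmk-3 (0.0424), Y56A3A.2 (0.0467) and gtf-2H1 (0.0523). For hpl-1 they were inso-1 (0.0584), Y111B2A.12 (0.0651) and mdt-1.2 (0.0706), and for met-2 they were F47D12.9 (0.0531), aka-1 (0.0558) and acl-12 (0.0679). Among the class A genes, lin-8 was nearest to bed-1 (0.0907), ZK643.5 (0.1) and F54D8.6 (0.126), lin-56 to K08H2.3 (0.107), snu-23 (0.113) and Y39B6A.37 (0.117), and lin-38 to bath-8 (0.0392), lips-12 (0.0473) and prmt-9 (0.048). A gene that varies little, such as lin-38, finds close neighbours more readily on this measure.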

How the data were processed

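Total RNA of lin-35(n745) and N2 worms at 3 stages was hybridised to 18 Affymetrix arrays. The deposited values, 1 per probe set and array, were made by the authors with RMA, per the submitters' processing notes. RMA is a method of background correction, quantile normalization and summary over probes; no version of it is named. They were taken as log2: the labels name no base, but the authors' deposited log2 values lie between 2.55 and 15.02, and the array medians between 6.21 and 6.39. Detection calls were not used here, and precision is limited by the number of arrays.

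Of 22625 probe sets, 77 controls were left out. Probe sets of the other 22548 name 1 gene in 20766 cases, several in 887 and none in 895. Means of the 6 groups were fitted to all of them with limma 3.58.1 in R 4.3.3 (12 residual and 7.66 prior degrees of freedom), with Benjamini-Hochberg adjustment within each contrast. The procedure was tested on simulated data. All 9 genes are named in every comparison. From each related list and strain contrast, up to 2 called genes with the largest difference could be named, and for each gene the 3 of most similar pattern. Alternatives changed the scaling, a level filter, the prior, the arrays fitted, the replicate block and the probe set rule, and left out each array. Embryo replicates 2 and 3 alone were added after seeing the data. The genes and lists were chosen with earlier results of these data known. No sequences or coordinates were used here.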

Additional observations from a re-analysis of the deposited data

Results flagged for a closer look

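The strain difference of 2 genes depended on the stage by the test of that difference. For lin-13 it was 1.10 ± 0.12 at L1 and 0.19 ± 0.12 in embryos, and these differ by 0.92 ± 0.18 (limma adjusted p = 0.00194), with all 3 lin-35(n745) L1 arrays above all 3 N2 L1 arrays. For lin-56 it was 0.22 ± 0.15 at L1 and -0.55 ± 0.15 in embryos, and these differ by 0.76 ± 0.21 (adjusted p = 0.0219), with all 3 lin-35(n745) embryo arrays below all 3 N2 embryo arrays. The lin-56 test is fragile, and its L1 values are low. It was lost without some single arrays, such as the first lin-35(n745) embryo replicate (0.66, adjusted p = 0.0685). With embryo replicates 2 and 3 alone it was lost too (0.74, adjusted p = 0.0538). Single outlying arrays were not sought, since each group held 3 arrays.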

How the results depend on the processing

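The strain differences of lin-13 at L1 and L4, lin-36 at L4, met-2 at L1 and lin-8 at L4, and the L1 against embryo test of lin-13, kept their direction and their call in every alternative run. Across the 9 genes, 0 called strain differences changed direction. Other scalings, filters or fits moved 5 of 204 strain values across the threshold. Of these, 3 are not given above: lin-38 in embryos passed with the embryo arrays alone (-0.37, adjusted p = 0.0458), and lin-56 at L4 passed with arrays centred on their medians (-0.44, adjusted p = 0.0391) and after quantile normalization (-0.47, adjusted p = 0.0446). Leaving out 1 array at a time, the genes called between strains in embryos numbered 1 to 3; those called for L1 against embryo numbered 1 to 3, for L4 against L1 0 to 1, for L4 against embryo 0 to 1, and for L4 against L1 within lin-35(n745) 3 to 5. The embryo count of 1 came without the second N2 embryo replicate. With the arrays of the groups compared alone, 3 genes rather than 5 were lower at L4 than at L1 in lin-35(n745), lin-36 (adjusted p = 0.0757) and met-2 (adjusted p = 0.0951) being lost. With the mean of a gene's probe sets, hpl-2 was higher at L4 than at L1 in lin-35(n745) (0.29, adjusted p = 0.0226) where its own probe set read -0.05, and in N2 (0.26, adjusted p = 0.0445). Centring on the median moved the median of all probe sets at L1 against embryo in N2 to 0.253, against 0.129 as deposited, and split the L1 strain calls as 1569 higher and 2302 lower, against 1859 and 1564. The L4 strain calls were then 1590 higher and 2108 lower, against 1751 and 1687. With the L1 arrays alone the strain calls were 1075 higher and 509 lower. Embryo calls with replicates 2 and 3 alone were 807 higher and 458 lower, against 1335 and 853; the lower ones numbered 444 to 557 without the first or second lin-35(n745) or the third N2 replicate. Lower calls at L1 numbered 1023 without the third N2 replicate, and at L4 1070 without the second lin-35(n745) replicate. The level filter kept 8 of the 9 genes, without lin-38. Deviations of same-numbered arrays from their group means correlated at -0.05 to 0.27 over the 3 stages, and not every array correlated best with its own number. The numbers were therefore not treated as pairs. The first embryo replicates of both strains shared the low BioDn-3 reading and the other shifted controls, and whether same-numbered arrays share a batch was not tested. With these first embryo replicates fitted as a block, 3 of the 9 genes were called between strains in embryos, 1 higher and 2 lower. With the replicate block the counts between strains were 3, 3 and 3, and no call of the 9 genes changed. Calls lost with it were those of lin-3 in embryos (adjusted p = 0.0534), set-6 at L1 (adjusted p = 0.0565) and cec-4 at L4 (adjusted p = 0.0743). The block was not run within strains. The cause of these shifts was not tested.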
